A study of Mus musculus with 12 samples.

Results

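The 9 osteoclast-regulating genes described here are signals by which osteoblasts act on osteoclasts: Tnfsf11, Tnfrsf11b, Csf1, Cxcl12, Ccl2, Sema3a, Lif, Il6 and Il11. They were chosen by name as rows of a gene count table, and all 9 were found among its 23358 rows. The RNA came from MC3T3 sc4 cells, a single subclone of a mouse calvarial pre-osteoblast line of the C57BL/6 strain, at passage 12. All cultures received osteogenic medium with ascorbic acid and β-glycerol phosphate, and were taken on day 1 or day 6, the medium and agents having been renewed after 3 days. Both days had the same 6 conditions: a vehicle control, bone morphogenetic protein 2 (BMP2) at 10 ng/ml, BMP2 at 50 ng/ml, GSK126 at 5 µM, and GSK126 at 5 µM with BMP2 at 10 or at 50 ng/ml. BMP2 drives osteoblast differentiation, and GSK126 blocks EZH2, which methylates histone H3 as part of Polycomb repressive complex 2. Each of the 12 conditions has 1 library, and a single clonal line stands for osteoblasts throughout.

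Osteoclasts, the cells that resorb bone, form from monocyte-lineage precursors that need a pair of signals from osteoblast-lineage cells. Macrophage colony-stimulating factor, the product of Csf1, keeps the precursors alive and dividing, and RANKL, the product of Tnfsf11, makes them differentiate by binding the receptor RANK. Osteoprotegerin, the product of Tnfrsf11b, is a soluble decoy receptor that binds RANKL and blocks it. Chemokines such as CXCL12 and CCL2 attract precursors, semaphorin 3A restrains osteoclast formation through neuropilin and plexin receptors, and LIF, IL-6 and IL-11 signal through the shared receptor subunit gp130.

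The libraries held 74301112 to 113744802 counts. Every count was even, as when both mates of a read pair are counted, so depth is given below in read pairs, with 95% Poisson intervals that cover counting error only. Levels are counts relative to library totals scaled by the trimmed mean of M-values (normalised CPM), and levels of different genes are compared only as RPKM, which also divides by gene length. Tests fitted GSK126 and each BMP2 dose within each day over all 12 libraries, so that libraries sharing a treatment stood in for replicates. Log2 fold changes are given ± SE, with adjusted p-values from edgeR's quasi-likelihood test over 12056 genes, and "the threshold" is an adjusted p of 0.05. The 12 libraries are 12 different conditions, so none is a replicate of another, and whether they came from separate experiments is not in the labels. The p-values therefore speak only of the spread among the libraries, which may be technical. In the additive fit, any departure from additivity of GSK126 and BMP2 dose on the log scale counts as part of that spread. Both days shared a single estimate of it. The range over the 6 treatments, treatment effects included, differed between days for several members. Tnfrsf11b ran from 81.1 to 94.3 normalised CPM on day 1 and from 72.1 to 578 on day 6. In bulk RNA, fewer cells of a type and less RNA per cell cannot be told apart.

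Of the 9 members, 7 passed the filter on low counts, while Tnfsf11 and Il6 did not and were not tested. Between day 1 and day 6, 5 of the 7 passed the threshold, 1 higher and 4 lower, against 78% of all genes tested (40.5% higher and 37.5% lower). For GSK126 on day 6, 4 of 7 passed, 3 higher and 1 lower, against 28.3% of all genes (14.3% higher and 14% lower). For BMP2 on day 6, 1 of 7 passed against 28.7% of all genes (13.3% higher and 15.5% lower), and for BMP2 on day 1, 1 of 7 against 3.66% (1.8% higher and 1.86% lower). For GSK126 on day 1, edgeR called 0 of 7 members and 0% of all genes. At an unadjusted p under 0.05 that comparison held 0 members and 755 genes, and DESeq2 called 0 members and 6 genes. With day 1 fitted alone, however, edgeR called 4 members and 17.5% of all genes for GSK126, and 6 and 40.6% for BMP2. The 50 ng/ml dose against 10 ng/ml gave 0 called members on day 6, with 2 at an unadjusted p under 0.05 and 1 called by DESeq2, against 11.8% of all genes (5.33% higher and 6.47% lower). On day 1 that contrast gave 0 members by edgeR, by DESeq2 and at an unadjusted p under 0.05, against 0% of all genes by edgeR. With day 1 fitted alone it gave 1 member and 10.2% of all genes.

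**Figure D1:**
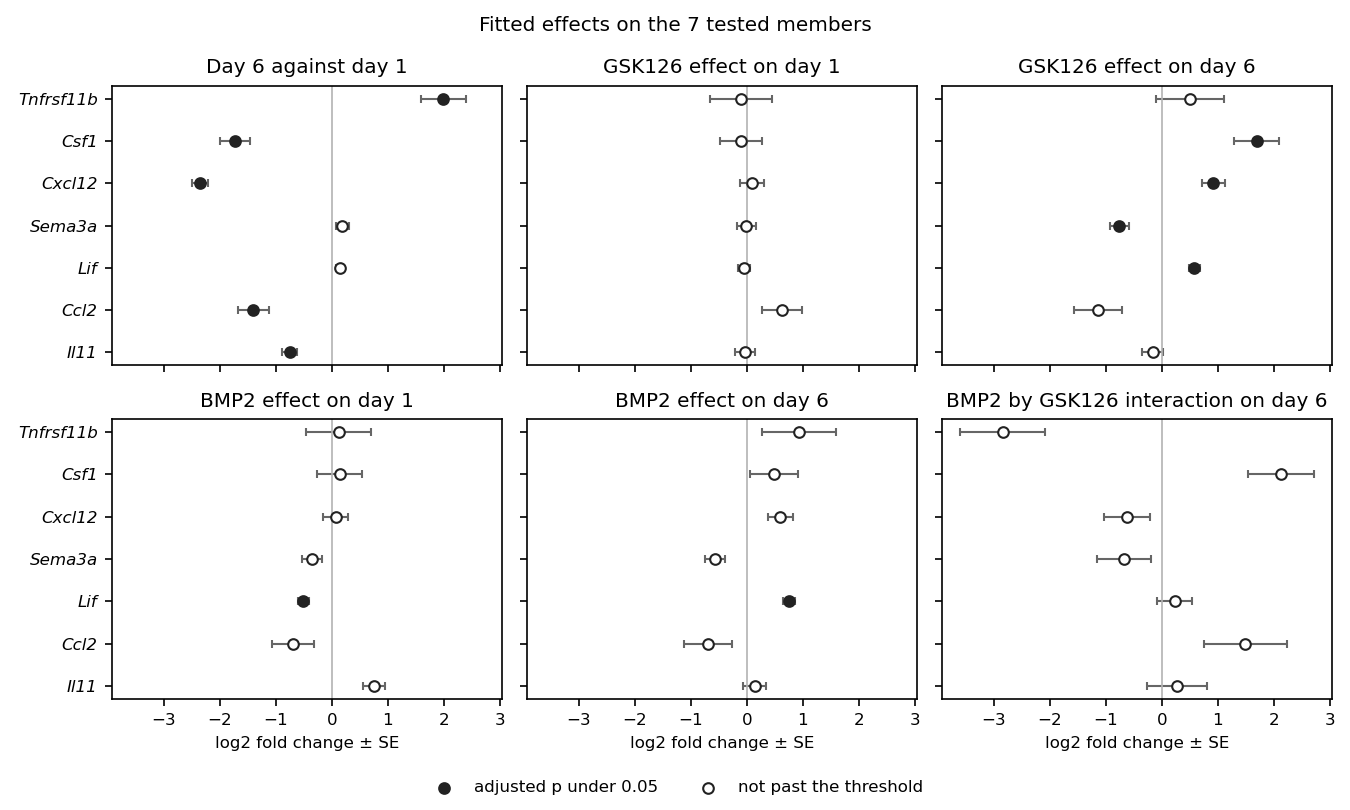
Fitted log2 fold changes (horizontal axis, points with bars of ± 1 SE) of the 7 tested members in 6 comparisons; filled points passed an adjusted p of 0.05. The day effect carries 5 filled points, GSK126 on day 6 carries 4, BMP2 carries 1 on each day, and GSK126 on day 1 and the interaction on day 6 carry none.

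Scaling mattered for the counts over all genes. With library size alone, the median gene moved by -0.209 (log2) for day, -0.145 for BMP2 on day 6 and -0.143 for 50 against 10 ng/ml on day 6. The share of called genes that were higher then went from 51.9% to 33% for day, from 50.5% to 60.9% for GSK126 on day 6, from 46.2% to 19.2% for BMP2 on day 6 and from 45.2% to 14.1% for the dose contrast. For the difference of the BMP2 effects between days the median moved by -0.101 and the share went from 41.7% to 25.4%, and for the interaction on day 6 the median moved by 0.11. None of the 13 member calls was lost or changed sign under that scaling.

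RANKL message was near absent in these cells. Tnfsf11 lies on mm10 chromosome 14, from 78277446 to 78308043 on the minus strand. It had 1 read pair in the library of day 1 with 50 ng/ml BMP2 alone, 0.0199 normalised CPM, and 0 in the other 11 libraries. The exact 95% Poisson limit on a count of 0 is 3.69 pairs, or 0.0597 to 0.113 normalised CPM depending on the library, so no change with day, BMP2 or GSK126 was detectable at this depth. The receptor that RANKL binds, Tnfrsf11a (RANK), had 2 to 10 read pairs per library.

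Promoter sequence upstream of the start site is shown for Tnfsf11, which was not detected beyond 1 read pair, and for the 4 members that GSK126 changed on day 6, Csf1, Cxcl12, Lif and Sema3a. Each is the 250 bases before the RefSeq start on GRCm38.p6, the assembly of mm10, read 5′ to 3′ on the gene's strand. Capitals mark CpG dinucleotides, the context of DNA methylation and of the CpG islands at which Polycomb complexes often sit.
Tnfsf11, chr14:78308044-78308293, minus strand: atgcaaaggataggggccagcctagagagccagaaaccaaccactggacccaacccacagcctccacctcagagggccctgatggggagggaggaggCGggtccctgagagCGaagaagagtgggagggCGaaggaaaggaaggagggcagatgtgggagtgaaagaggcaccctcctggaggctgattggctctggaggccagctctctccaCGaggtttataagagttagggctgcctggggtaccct
Csf1, chr3:107760470-107760719, minus strand: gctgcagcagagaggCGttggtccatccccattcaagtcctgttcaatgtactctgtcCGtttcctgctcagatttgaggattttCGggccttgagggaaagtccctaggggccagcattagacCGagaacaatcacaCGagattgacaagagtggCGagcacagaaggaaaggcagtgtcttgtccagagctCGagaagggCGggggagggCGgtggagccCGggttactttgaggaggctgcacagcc
Cxcl12, chr6:117168285-117168534, plus strand: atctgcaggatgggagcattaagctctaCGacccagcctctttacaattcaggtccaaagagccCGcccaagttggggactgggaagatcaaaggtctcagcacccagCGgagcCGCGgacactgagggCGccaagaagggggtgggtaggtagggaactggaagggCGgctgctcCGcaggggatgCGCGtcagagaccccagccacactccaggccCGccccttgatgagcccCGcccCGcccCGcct
Lif, chr11:4257318-4257567, plus strand: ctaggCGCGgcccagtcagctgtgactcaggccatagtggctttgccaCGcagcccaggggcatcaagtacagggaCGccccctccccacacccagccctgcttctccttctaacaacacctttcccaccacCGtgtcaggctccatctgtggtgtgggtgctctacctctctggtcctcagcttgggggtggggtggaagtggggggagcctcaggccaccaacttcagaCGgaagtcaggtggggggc
Sema3a, chr5:13396534-13396783, plus strand: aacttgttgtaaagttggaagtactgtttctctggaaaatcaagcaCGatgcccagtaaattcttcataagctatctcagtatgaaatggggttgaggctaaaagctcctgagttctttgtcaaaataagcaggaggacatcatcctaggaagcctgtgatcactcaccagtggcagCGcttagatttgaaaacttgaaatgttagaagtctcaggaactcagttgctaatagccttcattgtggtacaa

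These windows differ in CpG content. In the whole 300-base RefSeq window, 250 bases before the start and 50 after it, Cxcl12 had 20 CpG at 64.7% GC, Csf1 16 at 58.7%, Lif 7 at 63.7%, Tnfsf11 7 at 61.7% and Sema3a 2 at 41.3%. The median over 32851 such windows was 7 CpG at 52.7% GC. In CpG count Cxcl12 and Csf1 thus stood above that median, Lif and Tnfsf11 at it and Sema3a below it. This describes these windows only, and a link to the response to GSK126 was not tested. The TATA motif TATAAA, searched on both strands, was found 1 time in the Tnfsf11 window, as its reverse complement TTTATA on the gene's strand. It was not found in those of Csf1, Cxcl12, Lif and Sema3a, and 13.6% of all windows hold it on either strand. The motif TGTGGT, bound by Runx factors, was found 1 time each in the Lif and Sema3a windows and is in 16.8% of all windows. GENCODE M21 begins the Sema3a gene further upstream, at 13125414, so the Sema3a window may not be its only start.

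Osteoprotegerin message was abundant, and on day 6 it stood higher in all 5 treated libraries than in the control. Tnfrsf11b lies on chromosome 15, from 54250619 to 54278484 on the minus strand. On day 1 its level was 82.8, 94.3 and 92.5 normalised CPM at 0, 10 and 50 ng/ml BMP2 without GSK126, and 81.1, 88.6 and 82.2 with it. By day 6 these had become 72.1, 547 and 400 without GSK126, and 429, 578 and 206 with it. The control of day 6 was 0.872-fold that of day 1 (0.83 to 0.915), and the other 5 libraries of day 6 lay above every library of day 1.

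Averaged over the 6 treatments, Tnfrsf11b rose by 1.99 ± 0.4 on the log2 scale from day 1 to day 6 (adjusted p = 0.0028), higher in 5 of 6 treatments. Over all libraries left out singly it ran from 1.33 to 2.32 with the call kept. Against the day 6 control, single libraries were 7.58-fold higher with 10 ng/ml BMP2 (95% interval 7.31 to 7.86), 5.55-fold with 50 ng/ml (5.34 to 5.77) and 5.94-fold with GSK126 alone (5.73 to 6.17). These folds compare single libraries and have no replicate check.

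The combination did not add up for Tnfrsf11b. With GSK126 and 10 ng/ml BMP2 the level was 578, against 903 expected from adding the separate changes and 3250 from multiplying them. With GSK126 and 50 ng/ml it was 206, against 757 and 2380, and the library with GSK126 was 1.94-fold lower than the one with 50 ng/ml alone. The interaction on day 6 was -2.84 ± 0.76 (adjusted p = 0.37), and edgeR called 0 members and 0% of all genes for it. At an unadjusted p under 0.05 that interaction held 2 members and 1125 genes, and DESeq2 called 1 member and 190 genes. On day 1 the interaction had 0 members by edgeR, by DESeq2 and at an unadjusted p under 0.05, against 0.00829% of all genes by edgeR, 0.00829% being higher and 0% lower. Over the 10 fits with 1 library left out, the Tnfrsf11b interaction on day 6 ran from -3.77 to -2.28. The value of -3.77 came without the library of day 6 with GSK126 and 10 ng/ml. That fit had only 1 library of day 6 with both agents, so its size alone is given here.

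Averaged effects describe such a pattern poorly. The GSK126 effect on Tnfrsf11b on day 6 was 0.5 ± 0.61 (adjusted p = 0.57) and the BMP2 effect 0.94 ± 0.66 (adjusted p = 0.32). Without the day 6 library with GSK126 alone the BMP2 value was 2.72 (adjusted p = 0.0013) and the GSK126 value -0.44, and without the day 6 control they were -0.29 and -0.43. GSK126 on day 1 gave -0.1 ± 0.55. With day 1 fitted alone the GSK126 value of -0.1 passed (adjusted p = 0.018), as did a BMP2 value of 0.12 (adjusted p = 0.0028).

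The ratio of Tnfsf11 to Tnfrsf11b, the usual summary of how far osteoblasts favour osteoclast formation, could only be bounded. Per gene length (2235 and 2818 bases) it was 0.000271 in the 1 library with a Tnfsf11 pair and 0 in the others. Its upper 95% limits ran from 0.00016 in the library of day 6 with GSK126 and 10 ng/ml BMP2 to 0.00151 in that of day 1 with 50 ng/ml, so at that limit osteoprotegerin message was at least 661-fold higher per length in every library. Since RANKL was not detected in 11 libraries, differences in this limit only follow Tnfrsf11b and depth.

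**Figure D2:**
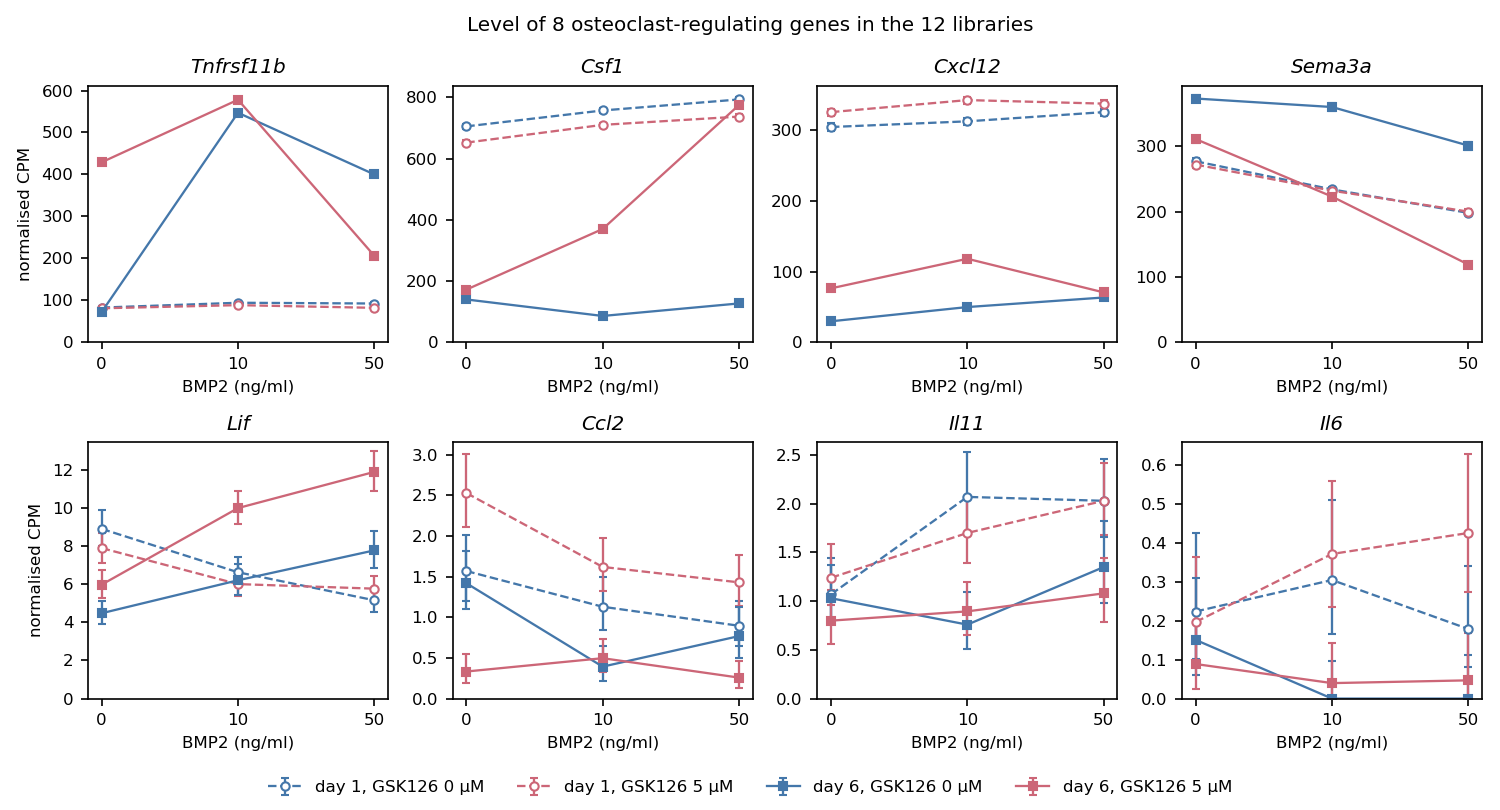
Level of 8 members in the 12 libraries (vertical axes, normalised CPM; horizontal axes, BMP2 dose), with dashed lines for day 1, solid lines for day 6, red for GSK126 and bars for 95% Poisson intervals of 1 library each. Tnfrsf11b on day 6 stood at 72.1 in the control and 206 to 578 in the other 5 libraries, and Csf1 returned to 775 only where GSK126 and 50 ng/ml BMP2 were combined.

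Csf1 fell with time in culture and was high again under the combination. It lies on chromosome 3, from 107741048 to 107760469 on the minus strand. On day 1 it stood at 705, 757 and 793 normalised CPM at 0, 10 and 50 ng/ml BMP2 without GSK126, and at 652, 710 and 737 with it. With day 1 fitted alone, the log2 value was -0.11 for GSK126 (adjusted p = 0.0017) and 0.14 for BMP2 (adjusted p = 3.8e-05). Neither passed in the fit over all 12 libraries. Day 6 values were 140, 86.1 and 127 without GSK126, and 172, 370 and 775 with it. The library with GSK126 and 50 ng/ml BMP2 was the only one of day 6 to lie within the range of day 1.

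Over the 6 treatments Csf1 fell by 1.73 ± 0.27 on the log2 scale from day 1 to day 6 (adjusted p = 0.00078), lower in 5 of 6. In single libraries the drop was 5.02-fold in the controls and 8.8-fold at 10 ng/ml BMP2 alone, and at 50 ng/ml with GSK126 the ratio of day 6 to day 1 was 1.05 (1.04 to 1.07). GSK126 raised Csf1 on day 6 by 1.69 ± 0.4 (adjusted p = 0.022), higher at 3 of 3 BMP2 doses. The ratio grew with dose, from 1.22 (1.18 to 1.26) with no BMP2 to 4.29 (4.14 to 4.46) at 10 ng/ml and 6.08 (5.88 to 6.28) at 50 ng/ml.

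The GSK126 call on Csf1 did not hold everywhere: DESeq2 gave an adjusted p of 0.053 and day 6 fitted alone 0.1. It was also lost without the day 6 library of 10 ng/ml BMP2 alone (1.45, adjusted p = 0.13), 50 ng/ml alone (1.19, adjusted p = 0.055), 10 ng/ml with GSK126 (1.45, adjusted p = 0.13) or 50 ng/ml with GSK126 (1.19, adjusted p = 0.055). The combined libraries exceeded both expectations: 370 was observed at 10 ng/ml against 117 by addition and 105 by multiplication, and 775 at 50 ng/ml against 159 and 156. The interaction on day 6 was 2.13 ± 0.59 (adjusted p = 0.38 by edgeR and 0.0039 by DESeq2). BMP2 on day 6 gave 0.49 ± 0.43 (adjusted p = 0.43). Without the day 6 library of GSK126 alone that value turned to -0.42 (adjusted p = 0.044), and without the day 6 control it was 1.65 (adjusted p = 0.00067). The difference of the GSK126 effect between days was 1.79 ± 0.55 (adjusted p = 0.09), and it passed at 2.46 without the day 6 control (adjusted p = 0.00028) or the day 6 library of GSK126 alone (adjusted p = 0.00029).

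Cxcl12, a chemokine that holds haematopoietic and osteoclast precursors in the marrow, fell the most with time of the 7 tested members. It lies on chromosome 6, from 117168535 to 117181368 on the plus strand. On day 1 it stood at 304, 312 and 325 normalised CPM without GSK126 and at 325, 342 and 337 with it, a narrow band. With day 1 fitted alone, the log2 value for GSK126 was 0.09 and passed (adjusted p = 0.024). It did not pass in the fit over all 12 libraries. The day 6 levels were 29.7, 49.8 and 63.3 without GSK126 and 76.2, 118 and 70.5 with it. All 6 libraries of day 6 lay below all 6 of day 1.

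Cxcl12 fell by 2.35 ± 0.15 on the log2 scale (adjusted p = 9.2e-06), lower in 6 of 6 treatments. Within day 6 every library with GSK126 was above every library without it, and the GSK126 effect was 0.92 ± 0.21 (adjusted p = 0.019). Single ratios were 2.56 (2.41 to 2.73) with no BMP2, 2.37 (2.25 to 2.5) at 10 ng/ml and 1.11 (1.05 to 1.18) at 50 ng/ml. The call was lost with day 6 fitted alone (adjusted p = 0.097) and with 1 library of day 6 left out: 10 ng/ml alone (0.75, adjusted p = 0.12), GSK126 alone (0.7, adjusted p = 0.052) or 10 ng/ml with GSK126 (0.76, adjusted p = 0.12). BMP2 on day 6 gave 0.6 ± 0.23 (adjusted p = 0.092). That value passed without the day 6 library of 50 ng/ml alone (0.3, adjusted p = 0.0039), GSK126 alone (0.94, adjusted p = 0.042) or 50 ng/ml with GSK126 (0.88, adjusted p = 6.3e-05).

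Ccl2, a chemokine for monocytes, was rare. It lies on chromosome 11, from 82035577 to 82037452 on the plus strand, and overlaps the antisense model Gm17268, so reads of the pair cannot be told apart if strand was not used in counting. On day 1 it had 63, 52 and 45 read pairs without GSK126 and 128, 100 and 84 with it, or 1.57, 1.13, 0.896, 2.53, 1.62 and 1.43 normalised CPM. Libraries of day 6 had 66, 15 and 25 without GSK126 and 15, 25 and 11 with it, or 1.42, 0.393, 0.769, 0.333, 0.497 and 0.258 normalised CPM.

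Ccl2 fell by 1.4 ± 0.28 on the log2 scale from day 1 to day 6 (adjusted p = 0.0026). It was lower in 6 of 6 treatments, but in the controls the ratio of day 6 to day 1 was 0.906 with an interval of 0.632 to 1.3. GSK126 on day 6 gave -1.14 ± 0.43 (adjusted p = 0.093 by edgeR, 0.035 by DESeq2), with lower levels at 2 of 3 doses. Leaving out either day 6 library of 10 ng/ml gave -1.86 (adjusted p = 0.0078 and 0.0077). On day 1 the value with GSK126 was 0.63 ± 0.36 (adjusted p = 0.81), higher at 3 of 3 doses. With day 1 fitted alone it was 0.62 and passed (adjusted p = 0.012), as did the BMP2 value of -0.69 (adjusted p = 0.0022). The difference between days, -1.76 ± 0.56, had an adjusted p of 0.1 by edgeR and 0.029 by DESeq2.

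Sema3a, an osteoblast product that restrains osteoclast differentiation, was lowest where both agents were combined on day 6. It lies on chromosome 5, from 13396784 to 13603485 on the plus strand, and overlaps 3 uncharacterised models of the same strand (Gm43130, Gm42676 and Gm42675). On day 1 it stood at 277, 234 and 198 normalised CPM at 0, 10 and 50 ng/ml without GSK126, and at 272, 232 and 200 with it. Day 6 levels were 373, 360 and 301 without GSK126, and 311, 223 and 119 with it. Levels fell from dose to dose in all 4 series, and the library with GSK126 and 50 ng/ml on day 6 was the lowest of the 12.

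GSK126 lowered Sema3a on day 6 by a log2 value of -0.76 ± 0.17 (adjusted p = 0.018), at 3 of 3 doses. The ratio was 0.832 (0.814 to 0.851) with no BMP2, 0.62 (0.605 to 0.636) at 10 ng/ml and 0.396 (0.383 to 0.41) at 50 ng/ml. On day 1 the effect was -0.01 ± 0.17. The day 6 call was lost with day 6 fitted alone (adjusted p = 0.097) and when either library of 10 ng/ml was left out, the one alone (-0.8, adjusted p = 0.078) or the one with GSK126 (-0.8, adjusted p = 0.079). It was kept in the other 10 left-out fits, at -0.48 without either library of 50 ng/ml and up to -1.01 in size. BMP2 gave -0.56 ± 0.18 on day 6, just outside the threshold (adjusted p = 0.055 by edgeR, 0.0037 by DESeq2), and -0.35 ± 0.18 on day 1 (adjusted p = 0.34). With each day fitted alone the day 1 value passed (adjusted p = 5.3e-07). The day 6 value of BMP2 passed without the control (-0.92, adjusted p = 0.0079), without 50 ng/ml alone (-0.77, adjusted p = 0.0016) or without 50 ng/ml with GSK126 (-0.34, adjusted p = 0.027). The combined libraries held 223 at 10 ng/ml against 298 by addition and 300 by multiplication, and 119 at 50 ng/ml against 238 and 250, with an interaction of -0.68 ± 0.48 (adjusted p = 0.68). Day gave 0.19 ± 0.12 (adjusted p = 0.19), a value that turned to -0.03 with library size alone as scaling.

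Lif was the member whose response to BMP2 turned between the days. It encodes leukaemia inhibitory factor and lies on chromosome 11, from 4257568 to 4272514 on the plus strand. On day 1 it had 358, 304 and 259 read pairs without GSK126 and 400, 371 and 339 with it, or 8.91, 6.63, 5.16, 7.9, 6.01 and 5.77 normalised CPM. On day 6 it had 208, 237 and 253 without GSK126 and 269, 504 and 507 with it, or 4.48, 6.21, 7.78, 5.98, 10 and 11.9 normalised CPM. On day 1 both series went down with dose, and on day 6 both went up.

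BMP2 lowered Lif on day 1 by a log2 value of -0.51 ± 0.1 (adjusted p = 0.043) and raised it on day 6 by 0.75 ± 0.11 (adjusted p = 0.0028), each in 4 of 4 libraries with BMP2 against the matched one without. The difference between days was 1.27 ± 0.14 (adjusted p = 0.004), in a comparison that called 1 of 7 members against 9.14% of all genes (3.82% higher and 5.33% lower). GSK126 raised Lif on day 6 by 0.58 ± 0.1 (adjusted p = 0.0059), higher at 3 of 3 doses, with ratios of 1.34 (1.11 to 1.61), 1.62 (1.38 to 1.89) and 1.53 (1.31 to 1.78). On day 1 the GSK126 value was -0.05 ± 0.1, and the difference between days, 0.63 ± 0.14, passed (adjusted p = 0.032), with 1 of 7 members called against 10.5% of all genes (3.94% higher and 6.52% lower).

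The Lif calls on day 6 were kept without any single library, at 0.52 to 0.66 for GSK126 and 0.63 to 0.87 for BMP2. The day 1 call for BMP2 was lost without any one of the 6 libraries of day 1 (-0.61 to -0.42 over all left-out fits, adjusted p up to 0.63) and without the 10 ng/ml library of day 6, alone (adjusted p = 0.066) or with GSK126 (adjusted p = 0.068). The difference in GSK126 effect was lost without the same 8 libraries (0.57 to 0.73, adjusted p up to 0.15), and that in BMP2 effect without the control of day 1 (1.17, adjusted p = 0.062). The combined levels on day 6 were 10 at 10 ng/ml against 8.29 by multiplication, and 11.9 at 50 ng/ml against 10.4, with an interaction of 0.23 ± 0.31 (adjusted p = 0.84). Averaged over treatments, day gave 0.15 ± 0.07 (adjusted p = 0.082), or -0.06 with library size alone as scaling.

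Il6 and Il11, the other gp130 cytokines, were rare. Il6 lies on chromosome 5, from 30013161 to 30019968, and had 9, 14 and 9 read pairs on day 1 without GSK126 and 10, 23 and 25 with it. On day 6 it had 7, 0 and 0 without GSK126 and 4, 2 and 2 with it. All 6 libraries of day 1 lay above all 6 of day 6, 90 pairs in all against 15, and the gene failed the filter and was not tested.

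Il11 lies on chromosome 7, from 4772378 to 4778141 on the minus strand, and had 43, 95 and 102 read pairs on day 1 without GSK126 and 63, 105 and 119 with it. In day 6 libraries it had 48, 29 and 44 without GSK126 and 36, 45 and 46 with it. It fell by 0.75 ± 0.13 on the log2 scale from day 1 to day 6 (adjusted p = 0.0013), lower in 6 of 6 treatments. On day 1 the BMP2 value was 0.75 ± 0.2 (adjusted p = 0.097), higher in 4 of 4 libraries. It passed with day 1 fitted alone (adjusted p = 0.003) and without the day 6 control (adjusted p = 0.049). On day 6 the values were 0.14 ± 0.2 for BMP2 and -0.16 ± 0.19 for GSK126, both with an adjusted p above the threshold.

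**Figure D3:**
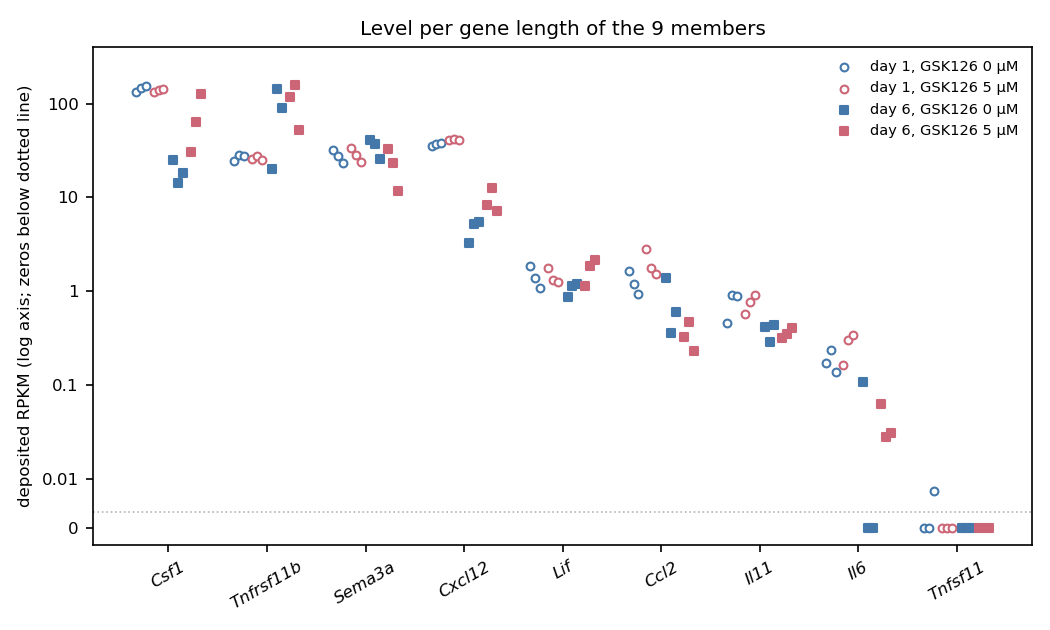
Deposited RPKM, a level per gene length (log axis, zeros drawn below the dotted line), of the 9 members; open circles are day 1, filled squares day 6, red is GSK126, and each set of 3 points runs from 0 to 50 ng/ml BMP2. Csf1 and Tnfrsf11b reach 152 and 156, while Tnfsf11 stays at or below 0.00753.

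Levels per length were set side by side as RPKM. Csf1 spanned 14.4 to 152 RPKM, Tnfrsf11b 20.2 to 156, Sema3a 11.8 to 40.4 and Cxcl12 3.28 to 41.9, and the ranges of these 4 overlapped across libraries. Lif spanned 0.874 to 2.13, Ccl2 0.231 to 2.8 and Il11 0.29 to 0.906, also overlapping. Il6 spanned 0 to 0.339, a range that overlapped those of Ccl2 and Il11, and Tnfsf11 spanned 0 to 0.00753. On day 1 Csf1 had the highest median of the 9, at 143 RPKM against 26.7 for Tnfrsf11b. On day 6 Tnfrsf11b had the highest median, at 104 against 29.5 for Sema3a and 27.6 for Csf1, but not the highest level in every library. In the day 6 control Tnfrsf11b stood at 20.2 RPKM, below Sema3a at 40.4 and Csf1 at 25. With GSK126 and 50 ng/ml BMP2 on day 6, Csf1 stood at 127 RPKM and Tnfrsf11b at 52.8.

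The receptors for these signals were read from a list of 16 genes, of which 13 were tested. The list also holds Osmr, whose ligand, oncostatin M, is not a member. Its gene Osm had 0 read pairs in all 12 libraries. Between day 1 and day 6, 6 rose and 7 fell, against 78% of all genes called (40.5% higher and 37.5% lower). The list median was -0.41 on the log2 scale, against 0.03 over all genes. Nrp2, a semaphorin and VEGF co-receptor, rose by 2.43 ± 0.06 and Lifr, the LIF receptor, by 1.41 ± 0.05. Nrp1, the other neuropilin on the list, was among those that fell. It went from 92 to 142 normalised CPM on day 1 to 40.8 to 70.8 on day 6. Cxcr7 (Ackr3), a scavenging receptor for CXCL12, fell by 2.04 ± 0.21 and Osmr, the oncostatin M receptor, by 1.71 ± 0.1. GSK126 on day 6 raised 4 and lowered 3: Osmr at 0.84 ± 0.14 and Lifr at 0.43 ± 0.06 were among those higher, and Il11ra1, the IL-11 receptor, at -0.71 ± 0.12 and Plxna2, a semaphorin receptor, at -0.38 ± 0.07 among those lower. Over all genes 28.3% were called for GSK126 on day 6 (14.3% higher and 14% lower). The list median was 0.23, against 0 over all genes.

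Lifr moved with BMP2 on both days. It stood at 93.1, 124 and 126 normalised CPM on day 1 without GSK126 and 97.2, 124 and 135 with it, and at 157, 240 and 487 on day 6 without GSK126 and 198, 366 and 616 with it. The BMP2 effect was 0.42 ± 0.07 on day 1 (adjusted p = 0.026) and 1.2 ± 0.07 on day 6 (adjusted p = 0.00014), with a difference of 0.78 ± 0.1 (adjusted p = 0.0053). In the fit over all 12 libraries, the LIF receptor message thus rose with BMP2 both when Lif fell and when Lif rose. The day 1 call on Lif was lost in 8 of 12 left-out fits, and such fits are not given for Lifr. On day 1 BMP2 raised 3 receptors and lowered 0, against 1.8% and 1.86% of all genes. Besides Lifr, those raised were Nrp1 (0.49 ± 0.08) and Plxna2 (0.45 ± 0.07). Those receptor counts were 1 higher and 1 lower with library size alone, 4 and 2 by DESeq2, 4 and 1 by limma-voom and 7 and 4 with day 1 fitted alone. On day 6 BMP2 raised 3 and lowered 2 of the receptors, against 13.3% and 15.5% of all genes. Csf1r, the receptor of CSF1, stood at 1.04 ± 0.25 from only 21 to 54 read pairs per library, and Il11ra1 at -1.11 ± 0.12.

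The receptors of precursor cells were scarce. Ccr2, the CCL2 receptor, had 0 to 1 read pairs, Cxcr4, the CXCL12 receptor, 0 to 66, and Csf1r reached at most 1.66 normalised CPM. Cxcr4 had 8, 26 and 55 pairs on day 1 without GSK126 and 14, 49 and 66 with it, and 0 to 6 on day 6.

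Other gp130 ligands and signalling genes were read from a list of 12, of which 9 were tested. From day 1 to day 6, 2 rose and 5 fell (median -0.21), against 40.5% and 37.5% of all genes. Socs3, a feedback inhibitor that gp130 signalling induces, fell by 1.31 ± 0.07. Jak2, a kinase of cytokine receptors, rose by 1.43 ± 0.14. GSK126 on day 6 raised 2, Jak2 at 0.76 ± 0.19 and Stat3 at 0.18 ± 0.05, and lowered 0, against 28.3% of all genes, with a list median of 0.15; neither passed with day 6 fitted alone. BMP2 on day 6 raised 1 and lowered 2, against 13.3% and 15.5% of all genes, with a list median of -0.02. Jak2 rose by 1.47 ± 0.21, and Jak1 was among those lower (-0.89 ± 0.15).

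Among 16 other chemokines only 2 passed the filter, Cx3cl1 and Ccl9. Both fell with day, by 1.69 ± 0.11 and 0.96 ± 0.11, as did 37.5% of all genes. Cx3cl1 was also lower with BMP2 on day 6, at -0.67 ± 0.15, as were 15.5% of all genes. GSK126 changed neither beyond the threshold on either day, against 0% of all genes on day 1 and 28.3% on day 6.

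Of 20 other signals that osteoblasts send to osteoclasts or that act on both cells, 11 were tested. Day raised 5, led by Pth1r, the parathyroid hormone receptor (2.33 ± 0.21), and Il18 (1.07 ± 0.09), and lowered 3, led by Vdr, the vitamin D receptor (-1.48 ± 0.21). Their median was 0.26, and over all genes 40.5% rose and 37.5% fell. GSK126 on day 6 raised 3 and lowered 0, against 14.3% and 14% of all genes. Those raised were Wnt5a, a ligand that promotes osteoclast formation through Ror2, at 1.24 ± 0.13, Pth1r at 1.03 ± 0.29 and Sema4d at 0.75 ± 0.14. BMP2 on day 6 raised 3 and lowered 2, against 13.3% and 15.5% of all genes. Pth1r (1.42 ± 0.32) and Wnt5a (0.75 ± 0.14) were among those higher. Those lower were Il34 (-1.39 ± 0.31, from 26 to 178 read pairs), an alternative ligand of the CSF1 receptor, and Ephb4 (-0.45 ± 0.05).

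Wnt5a on day 6 stood at 3.85, 4.5 and 7.93 normalised CPM without GSK126 and 8.34, 14.1 and 15.6 with it. Its GSK126 effect differed between days by 1.1 ± 0.18 (adjusted p = 0.011) and its BMP2 effect by 0.86 ± 0.19 (adjusted p = 0.037).

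Of the 6 semaphorin 3 genes other than Sema3a, 5 were tested. With GSK126 on day 6, 3 rose and 0 passed as lower (median 0.91), against 14.3% and 14% of all genes. Sema3b stood at 0.91 ± 0.23, and Sema3f at 1.65 ± 0.39 from only 3 to 44 read pairs per library of that day. BMP2 on day 6 lowered Sema3e (-1.43 ± 0.11) and Sema3c (-1.16 ± 0.2) and raised Sema3b (0.98 ± 0.26). Over all genes it lowered 15.5% and raised 13.3%. With day, 2 of the 5 were higher and 3 lower, against 40.5% and 37.5% of all genes. Sema3b rose by 1.91 ± 0.17 and Sema3e fell by 1.68 ± 0.08.

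NF-kB controls many cytokine genes, and 10 of 11 genes of its feedback and targets were tested. GSK126 on day 6 lowered 7 and raised 0 (4 and 0 with library size alone), against 14% and 14.3% of all genes. Vcam1, an adhesion molecule (-0.72 ± 0.09), and the inhibitor Tnfaip3 (-0.45 ± 0.05) were among those lower. BMP2 on day 6 lowered 4 and raised 1 (6 and 0 with library size alone), against 15.5% and 13.3% of all genes. Vcam1 stood at -1.45 ± 0.1 and Nfkbia at 0.19 ± 0.05. Day lowered 7 and raised 1, against 37.5% and 40.5% of all genes. Tnfaip3 fell by 1.23 ± 0.04 on the log2 scale, and the gene that rose was Birc3 (0.92 ± 0.04). The list medians were -0.21, -0.12 and -0.43.

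No list count on day 6 was larger with that day fitted alone, where 8.1% of all genes passed for GSK126 and 8.79% for BMP2. For GSK126 they became 1 higher and 1 lower among the receptors, 1 and 0 among the other signals and 0 and 3 in the NF-kB list, and 0 in the gp130, chemokine and semaphorin lists. For BMP2 they became 1 and 1 among the receptors and in the gp130 list, 0 and 1 among the other signals and in the NF-kB list, 0 and 2 among the semaphorins and 0 among the chemokines.

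**Figure D4:**
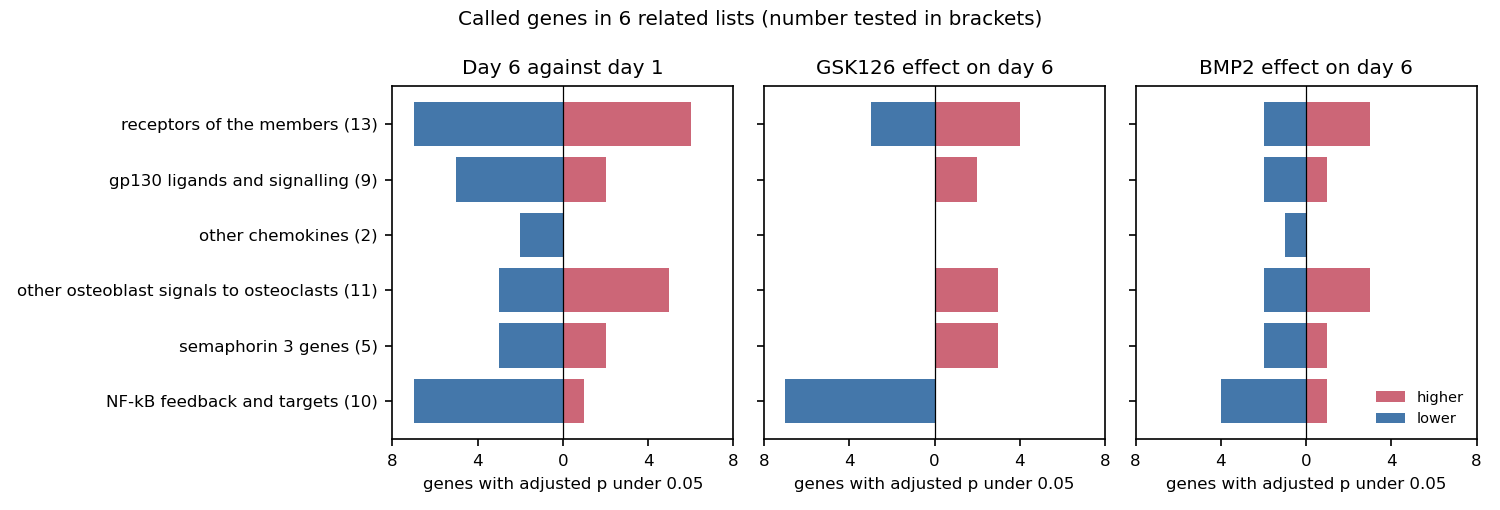
Number of genes past an adjusted p of 0.05 in 6 related lists (bars to the right higher, to the left lower; number tested in brackets) in 3 comparisons. The NF-kB list has 7 lower and 0 higher genes with GSK126 on day 6, and the receptor list has 6 higher and 7 lower with day. Over all genes tested, 78% passed with day, 28.3% with GSK126 on day 6 and 28.7% with BMP2 on day 6.

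With each day's mean taken away, the genes closest to each member over the 12 libraries were found by Pearson r of log2 CPM among about 9375 genes, as a description with no test. Csf1 was closest to Ahcyl1 (0.988), Idua (0.97) and Tk2 (0.966), Lif to Pcgf5 (0.987), Elf2 (0.961) and Swap70 (0.956), and Sema3a to Rel (0.977), Cnn2 (0.976) and Ptrf (0.961). Tnfrsf11b was closest to Rpl41 (0.962), Rras2 (0.959) and Rps14 (0.957), and Cxcl12 to Cnpy2 (0.963), Bcl2l13 (0.957) and Bmper (0.955). The rare members gave lower values, with Il11 closest to Hspa13 (0.95), Tmem55a (0.93) and Clock (0.926) and Ccl2 to Gstm2 (0.914), B3gnt2 (0.907) and Celf5 (0.892). Among all pairs of tested members, the most negative r was that of Csf1 and Sema3a (-0.92). The most positive was that of Tnfrsf11b and Cxcl12 (0.74), and Tnfrsf11b and Csf1 stood at -0.09. These points share libraries and depth, and n is 12, each library being a different condition. Where a member varied mainly on day 6, its r rests mainly on that day. Csf1 ran from 652 to 793 normalised CPM on day 1 and from 86.1 to 775 on day 6.

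Marker lists matched the label of an osteoblast line. All 7 osteoblast markers were at 1 normalised CPM or more in some library of day 6 (summed level 29500 to 89100), and on day 1 Bglap alone was under 1 in every library (summed level 19200 to 23700). Of 10 osteoclast markers, 8 were under 1 in every library of day 1 and 7 in every library of day 6, Ctsk and Nfatc1 being above 1 on both days and Mmp9 on day 6. Their summed level was 124 to 143 on day 1 and 232 to 326 on day 6, nearly all of it Ctsk and Nfatc1. Median normalised CPM went from 58.9 on day 1 to 216 on day 6 for Ctsk, and from 73.4 to 52.4 for Nfatc1. In every library of each day 2 osteoclast markers were at 0: Dcstamp on both days, Atp6v0d2 on day 1 and Calcr on day 6. Of 10 monocyte and macrophage markers, 7 were under 1 in every library of each day, Csf1r, Cd14 and Lyz2 being above, with sums of 7.53 to 9.28 and 10.3 to 17.2. All 6 lymphocyte, 4 endothelial and 4 adipocyte markers were under 1 in every library. The share of counts in Rn45s, the ribosomal RNA precursor, was 8.959% to 11.71% on day 1 and 13.1% to 21.66% on day 6. It was lower with GSK126 than without at every BMP2 dose on both days, and highest in the day 6 library of 50 ng/ml BMP2 alone. The osteoblast marker sum, most of it Col1a1, and this share were thus higher on day 6. Of the 5 members called with day, Tnfrsf11b rose and the others fell. The Rn45s share was lower with GSK126. Of the 4 members called for GSK126 on day 6, Csf1, Lif and Cxcl12 rose and Sema3a fell. Any part of the marker sum or of the Rn45s share in the member results was not tested.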

How the data were processed

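Sequenced libraries were those of the 12 conditions, grouped by their titles. The authors deposited gene counts and RPKM values, which the authors scaled for library size and gene length, in 1 table. Per the submitters' processing notes, bcl2fastq, TopHat2 2.0.6, HTSeq and mm10 were used. Counting mode, strand and annotation release: not given in the sources used here. The table has 23358 rows, 69 of which share a name, and none of the members does. All 195176 counts above 0 were even. Counts were tested as deposited; RPKM served only for levels per gene length.

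The tests took the 12056 genes that reached 1 CPM in 2 or more libraries. After TMM scaling, edgeR 4.0.16 in R 4.3.3 (quasi-likelihood test, Benjamini-Hochberg adjustment, threshold 0.05) was run with 8 coefficients and 4 residual degrees of freedom. The additive fit held GSK126 and each BMP2 dose within each day. The BMP2 effect is the mean of both doses against none, and the day effect the mean over 6 treatments. The interaction fit held day, GSK126 and any BMP2, so that dose is part of its spread. Expectations for combinations come from normalised CPM of single libraries and have no test. Scripts were tested on simulated counts.

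The alternatives were DESeq2 1.42.0, library size alone, other filters, limma-voom (limma 3.58.1), halved counts, each day alone, and each library left out. Their effect is in the closing section. The members and lists were chosen with earlier results of these data known. From each list, at most 4 called genes per comparison with a mean CPM of at least 1 were eligible to be named, largest change first; genes named for their levels alone (such as Ccr2) were chosen after their values were seen. Ackr3, Adgre1 and Spi1 were found as Cxcr7, Emr1 and Sfpi1. Promoter windows come from RefSeq on GRCm38.p6, with 7 of 9 members matched, and gene overlaps from GENCODE M21. The values of 1 list gene are not reported here, though the list counts include it.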

Additional observations from a re-analysis of the deposited data

Results flagged for a closer look

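Lif met the criterion for a difference between groups in both agents' effects. Its BMP2 effect differed between day 6 and day 1 by 1.27 ± 0.14 on the log2 scale (adjusted p = 0.004, edgeR's quasi-likelihood test), being -0.51 on day 1 and 0.75 on day 6. Its GSK126 effect differed by 0.63 ± 0.14 (adjusted p = 0.032), being -0.05 on day 1 and 0.58 on day 6. The first difference was lost without the control library of day 1 (1.17, adjusted p = 0.062). The second was lost without any library of day 1 or either day 6 library with 10 ng/ml BMP2.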

How the results depend on the processing

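No paired analysis was possible because the labels carry no replicate numbers; matching by BMP2 dose and GSK126 is part of the additive fit. With each day fitted alone, which leaves fewer libraries per fit, called members numbered 4 for GSK126 on day 1 (17.5% of all genes), 1 (Lif) for GSK126 on day 6 (8.1%), 6 for BMP2 on day 1 (40.6%) and 1 (Sema3a) for 50 against 10 ng/ml on day 1 (10.2%). DESeq2 called 2 for BMP2 on day 6 (29.8% of all genes), 1 for 50 against 10 ng/ml on day 6 (15.9%), 3 for the difference in GSK126 effect (14.3%) and 1 (Csf1) for the interaction on day 6 (1.58%). Library size alone gave 2 for BMP2 on day 6 (35%) and 1 for the dose contrast on day 6 (20.3%), and no filter gave 2 for BMP2 on day 6 (17.2%). The causes of these shifts were not tested. With library size alone, the day values of Lif and Sema3a turned to -0.06 and -0.03 and the Il11 value for BMP2 on day 6 to -0.01; none was called.

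Leaving out each library in turn, called members ranged from 2 to 4 for GSK126 on day 6 (15.2% to 35.3% of all genes), 0 to 2 for BMP2 on day 1 (0.00831% to 12.4%), 1 to 4 for BMP2 on day 6 (19.4% to 40.3%) and 0 to 3 for 50 against 10 ng/ml on day 6 (2.14% to 25.2%). They ranged from 0 to 3 for the difference in GSK126 effect (2.84% to 21.8%), 0 to 2 for that in BMP2 effect (0.864% to 20.9%) and 0 to 1 for the interaction on day 6 (0% to 1.3%). Values whose sign turned in some such fit were as follows. For Tnfrsf11b on day 6 they ran from -0.44 to 1.32 for GSK126, -0.29 to 2.72 for BMP2 and -2.23 to 0.04 for the dose contrast, and from -0.41 to 2.6 for the difference in BMP2 effect. Csf1 ran from -0.42 to 1.65 for BMP2 on day 6 and from -0.56 to 1.5 for the difference in BMP2 effect. Cxcl12 ran from -0.77 (adjusted p = 0.0028, without 50 ng/ml alone) to 0.37 (adjusted p = 0.0084, without 50 ng/ml with GSK126) for the dose contrast on day 6, and Ccl2 from -1.31 to 0.21 for BMP2 on day 6. Il11 ran from -0.01 to 0.3 for BMP2 on day 6 and from -0.09 to 0.74 for the interaction. The cause was not tested. The 5 day calls and both Lif calls on day 6 were kept in every left-out fit. The interaction of a day could not be fitted without that day's control or GSK126-alone library. A further 25 member values, never called in any fit, are not listed; 13 of them turned sign in some alternative. limma-voom, halved counts and the filter at 6 libraries changed no call among 52 member values. Depth limits Tnfsf11 and Il6, and among the 7 tested members counting error is widest for Ccl2 and Il11.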
